A study of Mus musculus with 56 samples.

Results

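Between day 21 and day 45 after miR-122 was deleted from the adult mouse liver, most of the other microRNAs that passed the test, 28 of 32, came from 1 imprinted gene cluster. The comparison covers 261 microRNAs, which are all those with a mean of at least 10 RPM over the 6 mice, of 478 listed besides miR-122. RPM values are read numbers scaled so that the microRNA reads other than those of miR-122 come to 1000000 in each library. Members were taken by this level alone, but the mean ran over both days. Thus 27 members with a day 21 mean under 10 RPM passed through day 45, and 8 with a day 45 mean under 10 RPM passed through day 21. miR-106a (10.1 RPM) was just inside the minimum, and miR-1-2 (9.97 RPM) and miR-467g (9.89 RPM) just outside. Of the 52 listed microRNAs of the Dlk1-Dio3 cluster 35 passed the minimum, 14 of them through day 45, and 28 of the 35 rose. Outside this cluster miR-181d, miR-466k and miR-675 were called higher and miR-802 lower; the 2 weakest of these calls, miR-466k and miR-675, held in few of the fits that left out a mouse.

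Both groups were 129Sv/J mice whose miR-122 gene was flanked by loxP sites, and both had received rAAV8-Ef1a-Cre, a viral vector that carries the Cre recombinase. The 3 mice of the earlier group were sampled 21 days after Cre, and the 3 of the later group 45 days after Cre. Thus the deletion and the vector were shared by both groups, and the labels set the groups apart by the time since Cre alone. Each library came from the whole liver of 1 mouse; the labels give neither age nor sex, which may therefore have differed between the groups. The Ef1a promoter is active in many cell types, so the deletion was not tied to hepatocytes by the promoter. In whole tissue, fewer cells of a type and less RNA per cell cannot be told apart.

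miR-122 itself was the check of the labels. It held 12.5%, 13.2% and 8.22% of microRNA reads in the mice of day 21 and 0.908%, 0.383% and 1.23% in those of day 45. No mouse overlapped between the days, and the mean of log2 shares fell by 3.88 (two-sided exact permutation test, p = 0.10, the smallest that 3 mice against 3 allow). As estimated from the steps between low values, the libraries held 501237, 494285 and 866871 microRNA reads on day 21 (mice A, B and C) and 80092, 193910 and 533629 on day 45. At these depths 3 reads correspond to 3.77 to 6.99 RPM on day 21, but to 37.8 RPM in mouse A of day 45, the shallowest library. As a check of the tissue, the hepatocyte and gut microRNA miR-192 was among the 10 most abundant, with 13667 to 55163 RPM in the 6 mice.

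MicroRNAs are short RNAs that guide Argonaute proteins to messenger RNAs, chiefly through the seed, bases 2 to 8 counted from the 5′ end. The Dlk1-Dio3 region is imprinted: its microRNAs are processed from long noncoding transcripts (Meg3, the Rtl1 antisense RNA, Rian and Mirg) that are made from the maternal chromosome. These transcripts are abundant in the embryo, placenta and brain and are low in the normal adult liver. The Igf2-H19 region is a second imprinted locus, with miR-483 in an intron of the growth factor gene Igf2 and miR-675 in an exon of the noncoding RNA H19.

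The mature sequences below are those on which the comparison turns, from RefSeq (GRCm38.p6), where 211 of the 261 microRNAs tested and 30 of the 32 that passed the test had one. They are shown 5′ to 3′ with the seed in capitals. The deposited rows are hairpins and do not separate the arms. The first 3 are arms of the cluster microRNAs miR-376a, miR-541 and miR-127, which were among the most abundant of the cluster on day 45.
miR-376a-3p: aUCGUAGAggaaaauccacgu
miR-541-5p: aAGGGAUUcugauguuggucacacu
miR-127-3p: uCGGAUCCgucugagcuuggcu
The next pairs share a seed among microRNAs that rose, which was seen for miR-1193 with miR-379 and for miR-376b with miR-376c.
miR-1193-5p: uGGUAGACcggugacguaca
miR-379-5p: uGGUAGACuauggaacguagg
miR-376b-5p: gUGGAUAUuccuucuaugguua
miR-376c-5p: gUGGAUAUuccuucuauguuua
The last set is of the microRNAs outside the cluster that passed the test, with miR-181b for comparison.
miR-181d-5p: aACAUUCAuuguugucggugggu
miR-181b-5p: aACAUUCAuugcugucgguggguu
miR-466k: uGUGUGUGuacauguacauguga
miR-675-5p: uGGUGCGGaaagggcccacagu
miR-802-5p: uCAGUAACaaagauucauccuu
The authors' alignment allowed 2 mismatches. The 5p arms of miR-181d and miR-181b differ at 1 of 23 bases and those of miR-376b and miR-376c at 1 of 22 bases, so reads of these pairs may have been exchanged. The 3p arms of miR-379 and miR-411 differ at 2 of 22 bases. The other sequences of microRNAs that rose or fell each differed from every other RefSeq mature sequence in the comparison at more than 2 bases, from the first base on. MicroRNAs without a RefSeq sequence, which include most of those named miR-466, miR-467 or miR-669, were not compared. Sequences shifted against each other were not compared either, so an exchange of reads was checked only in part.

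Of the 261 microRNAs, 31 were higher on day 45 (11.9%) and 1 was lower (0.383%), in all 32 or 12.3%, at an adjusted p under 0.05 (limma with Benjamini-Hochberg adjustment). At an unadjusted p under 0.05 there were 48 higher and 14 lower. The median log2 fold change over all 261 was 0.11. In 48 microRNAs (18.4%) each mouse of day 45 was above each mouse of day 21, and in 12 (4.6%) each was below. In the plot of change against level most cluster members lie above the other microRNAs of like abundance.

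**Figure D1:**
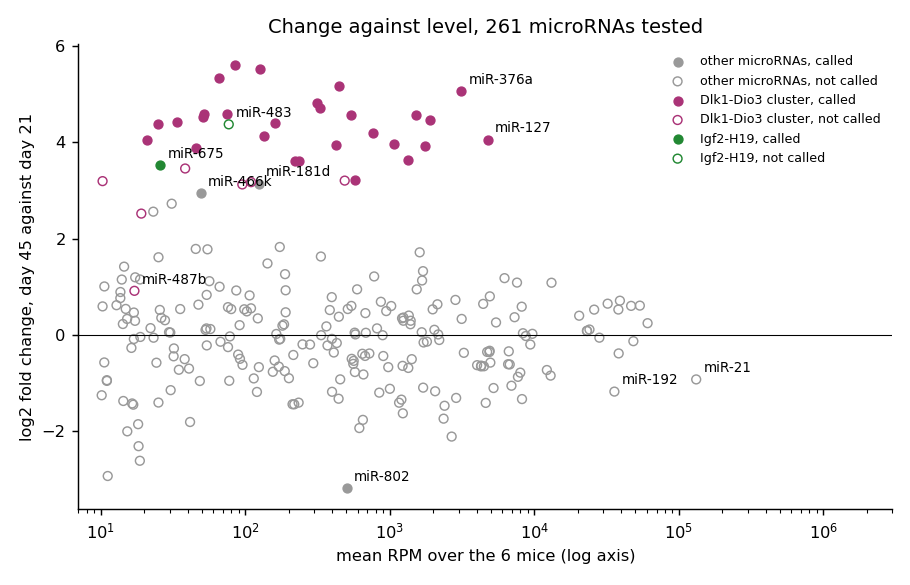
Log2 fold change of day 45 against day 21 (y axis) against mean RPM over the 6 mice (x axis, log scale) for the 261 microRNAs, 1 point each, with those at an adjusted p under 0.05 filled. The 35 Dlk1-Dio3 microRNAs all lie above 0, while the others lie on both sides of 0 and miR-802 is the lowest.

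The whole cluster came to 1043, 1396 and 3829 RPM in mice A, B and C of day 21. On day 45 it came to 10710, 42797 and 66099 RPM. This is 0.104% to 0.383% of the reads other than miR-122 on day 21 and 1.07% to 6.61% on day 45. Mouse C was the highest of day 21 and mouse A the lowest of day 45, yet the days did not overlap. The summed level was 17.6-fold higher on day 45 (log2 difference 4.14, with an SD of 0.98 among the log2 sums of day 21 and 1.37 among those of day 45; two-sided exact permutation test, p = 0.10, the smallest the design allows).

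Of the 35 cluster microRNAs tested, all had a positive log2 fold change and 28 rose, with a median of 4.13 against 0.11 for all 261. The minimum was set over both days, and 14 of the 35 had a day 21 mean under 10 RPM, so that they passed it through day 45. Of the 21 with a day 21 mean of 10 RPM or more, 18 rose. The 17 listed members below the minimum included 10 with any read in the 6 mice, and all 10 of these had a higher mean on day 45 than on day 21. The 7 tested members that had a positive value but missed the threshold were miR-409 (adjusted p = 0.056, limma), miR-411 (0.056), miR-329 (0.059), miR-666 (0.164), miR-433 (0.168), miR-410 (0.181) and miR-487b (0.742).

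miR-376a, whose precursor is a known target of RNA editing in the brain, had 89.0, 139.9 and 284.0 RPM on day 21. It had 2104, 9090 and 7012 RPM on day 45. The lowest mouse of day 45 was well above the highest of day 21, and the log2 fold change was 5.06 ± 0.64 (SE; limma adjusted p = 5.5e-05). miR-541 had 52.5, 114.2 and 165.9 RPM on day 21 and 995.4, 2801 and 4908 RPM on day 45. Mouse A was the lowest of both days for this microRNA, and the groups stayed apart, with a log2 fold change of 4.57 ± 0.68 (adjusted p = 0.00024, limma).

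miR-127 lies antisense to Rtl1, a retrotransposon-derived gene of the placenta that it cleaves through perfect pairing. It had 134.6, 323.9 and 602.1 RPM on day 21 and 819.0, 8029 and 18684 RPM on day 45. The spread among the mice of day 45 was wide, mouse A being the lowest and close to the highest mouse of day 21. The log2 fold change was 4.06 ± 0.88 (adjusted p = 0.0047, limma), and it was 3.10 without mouse C of day 45 and 5.36 without mouse A of day 45, called in each of the 6 fits. miR-410, which lies at the other end of the cluster, had 0, 4.61 and 18.8 RPM on day 21 and 12.6, 31.0 and 47.4 RPM on day 45. Here the days overlapped and the log2 fold change of 2.52 ± 1.15 did not pass the test.

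The largest fitted log2 fold changes were those of microRNAs near 0 on day 21, where the value depends on the 1 RPM added before the logarithm. miR-496 had 2.29, 0 and 6.32 RPM on day 21 and 75.6, 113.9 and 315.0 RPM on day 45, for a log2 fold change of 5.61 ± 1.02. miR-540 had 9.15, 0 and 10.0 RPM on day 21 and 138.6, 414.2 and 185.9 RPM on day 45, at 5.52 ± 1.19. miR-381 had 0, 0 and 18.8 RPM on day 21 and 50.4, 181.2 and 142.2 RPM on day 45, at 5.35 ± 1.17. In all of these microRNAs 1 or more mice of day 21 had no read, and every mouse of day 45 was above every mouse of day 21. Their day 21 means were under 10 RPM and they passed the minimum through day 45, so their selection favoured a higher day 45.

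Beside these, miR-376a and miR-541, the 12 largest included miR-494 at a log2 fold change of 5.18 ± 1.21, miR-369 at 4.82 ± 1.02, miR-341 at 4.71 ± 1.23 and miR-1193 at 4.60 ± 0.99. The remaining members of the 12 were miR-134 at 4.58 ± 1.05, miR-376c at 4.56 ± 1.28 and miR-543 at 4.52 ± 1.08. With a mouse left out, miR-341 was called in 2 of 6 fits (adjusted p up to 0.103, limma), miR-376c in 2 (up to 0.125; also lost at a pseudocount of 0.5, 0.053, and without the filter, 0.055), miR-494 in 4 (up to 0.064) and miR-543 in 5 (up to 0.055), while miR-369, miR-1193 and miR-134 were called in all 6. miR-134 is known for limiting dendritic spine size in neurons. It rested on 2, 2 and 1 reads on day 21 and on 7, 18 and 62 reads on day 45, so its ratio of mean RPM, 28.5, has a 95% Poisson interval of 14.2 to 102.1 from the day 21 counts (counting error only). Equally low on day 21 were miR-380, at 1 read in each mouse, with a ratio of 33.5 (12.5 to 177), and miR-673, at 2, 0 and 1 reads, with a ratio of 20.4 (7.59 to 108). miR-666 had no read on day 21 and 0, 9 and 8 reads on day 45, and did not pass the test. Of the microRNAs in this paragraph, miR-1193, miR-543, miR-134, miR-380, miR-673 and miR-666 had day 21 means under 10 RPM. They passed the minimum through day 45, so their selection favoured a higher day 45.

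**Figure D2:**
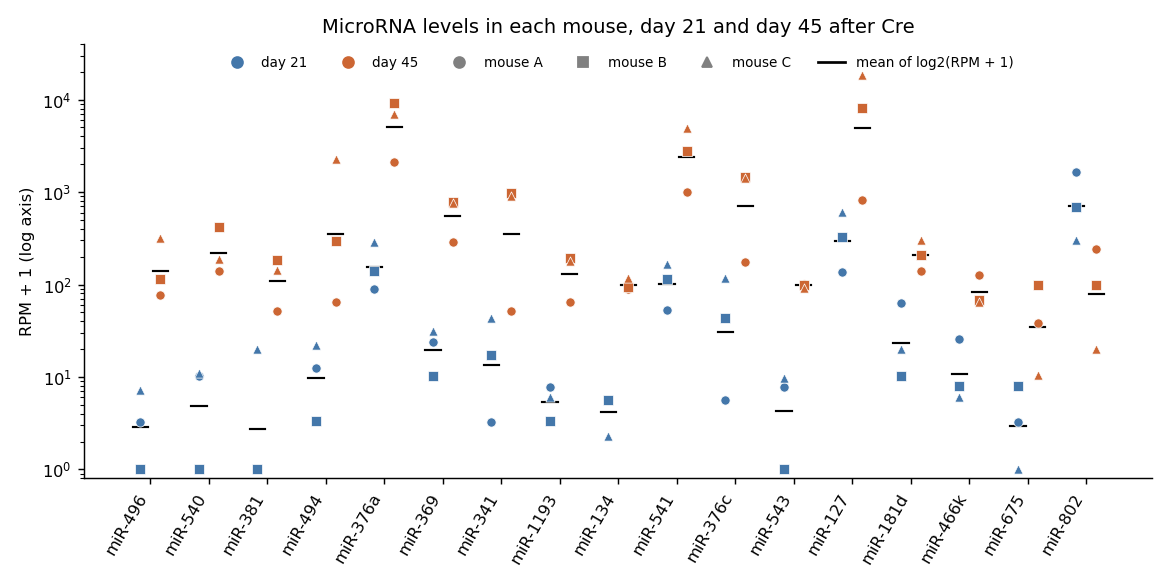
RPM + 1 on a log axis for the 12 cluster microRNAs with the largest log2 fold changes, miR-127, and the 4 microRNAs outside the cluster that passed the test; each symbol is 1 mouse (circle A, square B, triangle C; blue day 21, orange day 45) and the bar is the mean of log2(RPM + 1). In all 17 the symbols of the days do not overlap, and miR-802 alone is lower on day 45.

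Over the 28 cluster microRNAs that rose, mouse A was the lowest of day 45 in 24 and mouse C the highest of day 21 in 21. The days did not overlap in 29 of all 35 tested cluster members, against 48 of all 261 microRNAs with each mouse of day 45 above each of day 21. Among the 28 the exception was miR-379, with 189.0 RPM in mouse A of day 45 and 270.2 RPM in mouse C of day 21. Mouse A of day 45 also had the shallowest library, and the part of depth in its lower levels was not tested. Leaving out each mouse in turn, 14 of the 28 passed the test in all 6 fits, among them miR-376a, miR-541, miR-127, miR-496, miR-540 and miR-381. Of those named, miR-496, miR-540 and miR-381 had passed the minimum through day 45. The count of cluster microRNAs called higher fell to 17 without mouse A of day 21, to 15 without mouse B of day 21 and to 18 without mouse B of day 45.

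The cluster is read in 1 direction, on the + strand of chromosome 12. The 32 of its tested microRNAs that had a RefSeq position ran from miR-673 (start 109571990) to miR-410 (end 109743795 in GRCm38.p6). The group between Meg3 and Rtl1 had 4 tested members, miR-673, miR-337, miR-540 and miR-665, all of which rose, with a median log2 fold change of 4.13. Of the 4 tested members antisense to Rtl1, 3 rose (miR-127, miR-434 and miR-136), with a median of 3.77. In the Rian group miR-341 was the only member tested and rose, and in the Mirg group 20 of 26 rose, with a median of 4.40. The rise was thus seen in each of the 4 groups, and no difference between them was tested.

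**Figure D3:**
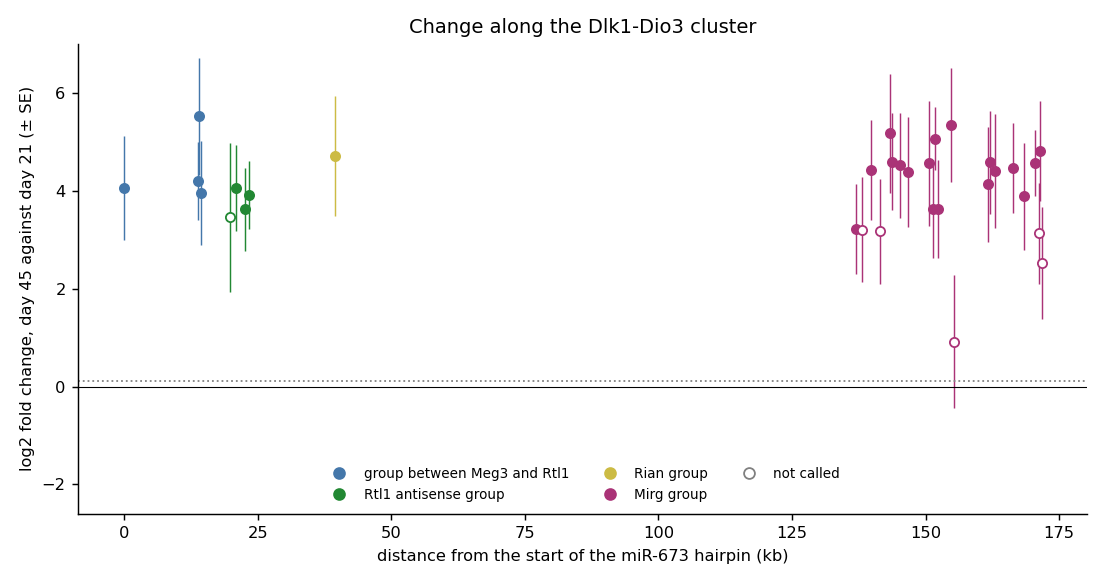
Log2 fold change of day 45 against day 21 with its SE (y axis) against the distance in kb from the start of the miR-673 hairpin (x axis) for the 32 tested cluster microRNAs with a RefSeq position, coloured by group. Filled points passed the test, open points did not, and the dotted line is the median of all 261; the points run between 0.92 for miR-487b and 5.52 for miR-540 with both ends of the cluster above the dotted line.

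The share of single members within the cluster was uneven. miR-376a held 8.53%, 10.0% and 7.42% of the cluster's reads on day 21 and 19.6%, 21.2% and 10.6% on day 45, with no overlap. miR-127 held 12.9%, 23.2% and 15.7% on day 21 and 7.65%, 18.8% and 28.3% on day 45, with overlap. The Mirg group held 41.2% to 64.5% of the cluster's reads on day 21 and 52.9% to 64.2% on day 45. The 5 most abundant members of day 45 (miR-127, miR-376a, miR-136, miR-541 and miR-154) held 43.5% to 66.3% on day 21 and 57.1% to 66.0% on day 45.

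The RNA-seq libraries of the same days, 3 per day in FPKM (fragments scaled to transcript length and library size), gave the long transcripts of the cluster; the labels do not say whether they are of the same mice. Of 11354 genes tested 31 were called, all higher on day 45 (0.273%, limma adjusted p under 0.05), and 1811 had an unadjusted p under 0.05. This count was unstable: it was 0 to 2 when any library other than A of day 45 was left out, 180 without library A of day 45, 10 without a filter and 58 at a pseudocount of 0.1. Rian had 0.952, 1.87 and 5.80 FPKM on day 21 and 12.01, 45.6 and 38.9 FPKM on day 45. The days did not overlap, and the log2 fold change on the log2(FPKM + 1) scale was 3.10 ± 0.56 (limma adjusted p = 0.046). Mirg had 0.169, 0.388 and 1.60 FPKM on day 21 and 3.56, 12.4 and 8.45 FPKM on day 45, at 2.37 ± 0.38 (adjusted p = 0.029, limma). Meg3 had 1.19, 2.91 and 8.31 FPKM on day 21 and 12.7, 89.4 and 61.3 FPKM on day 45, at 3.31 ± 0.63, and missed the threshold (adjusted p = 0.057, limma). In these 3 transcripts the library labelled C was the highest of day 21 and that labelled A the lowest of day 45. The calls for Rian and Mirg were lost when any library other than A of day 45 was left out, with a log2 fold change of 2.71 to 3.68 for Rian (adjusted p = 0.0098 to 0.22, limma) and 2.02 to 2.80 for Mirg (adjusted p = 0.0047 to 0.18). Both were also lost without the filter on FPKM and with the replicate letter as a block in the fit (adjusted p = 0.060 each, limma). Meg3 ran from 2.76 to 4.13 (adjusted p = 0.0047 to 0.26, limma) and was called only without library A of day 45.

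At Igf2-H19, miR-675 was called higher and miR-483 did not pass the test. Both had day 21 means under 10 RPM (3.10 and 0.762 RPM) and passed the minimum through day 45 alone, so that their selection favoured a higher day 45. miR-675 was seen in 1, 3 and 0 reads on day 21 and in 3, 19 and 5 reads on day 45, which is 2.29, 7.03 and 0 RPM against 37.8, 98.4 and 9.52 RPM. The days did not overlap, and the log2 fold change was 3.53 ± 1.12 (limma adjusted p = 0.042); the ratio of mean RPM was 15.6 (95% Poisson interval 7.89 to 74.1 from the day 21 counts). This call held in only 2 of the 6 fits that left out a mouse (adjusted p = 0.028 to 0.205, limma), and was lost at a pseudocount of 0.5, with median centring, with the minimum taken over 15 libraries and with the 6 libraries alone (0.057 to 0.106). miR-483 had 2.29, 0 and 0 RPM on day 21 and 75.6, 383.1 and 0 RPM on day 45. Mouse C of day 45 had no read of miR-483 among 527080 reads other than miR-122, although its Dlk1-Dio3 sum was the highest of the 6 mice. The log2 fold change of miR-483 was 4.38 ± 1.58 (adjusted p = 0.086, limma), and it ran from 2.56 without mouse B of day 45 (adjusted p = 0.443) to 6.85 without mouse C of day 45 (adjusted p = 0.0031), the only one of these 6 fits that called it. It was also called with all microRNA reads as the base (0.0498), at a pseudocount of 10 (0.020) and with array quality weights (0.039).

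Together the pair summed to 4.57, 7.03 and 0 RPM on day 21 and to 113.4, 481.4 and 9.52 RPM on day 45 (log2 difference on RPM + 1 of 4.55; two-sided exact permutation test, p = 0.10, the smallest the design allows). H19 had 11.7, 42.9 and 3.92 FPKM on day 21 and 391.7, 844.9 and 66.3 FPKM on day 45. The days did not overlap, at a log2 fold change of 4.33 ± 0.86 (limma adjusted p = 0.062). Igf2 had 0.496, 0.616 and 3.02 FPKM on day 21 and 39.8, 255.0 and 3.66 FPKM on day 45, at 4.10 ± 1.12 (adjusted p = 0.125, limma). With 1 library left out, Igf2 ran from 2.69 to 5.58 (adjusted p = 0.064 to 0.53, limma) and H19 from 3.54 to 5.36 (0.064 to 0.26). Among the RNA-seq libraries of day 45, that labelled C was the lowest for both transcripts.

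miR-802, a microRNA of the liver and pancreas, was the only microRNA that fell. Its hairpin lies at chr16:93369720-93369816 on the + strand (GRCm38.p6). It had 1668, 692.2 and 304.2 RPM on day 21 and 239.4, 98.4 and 18.9 RPM on day 45. Mouse C was the lowest of both days, and the highest mouse of day 45 was just under the lowest of day 21. It fell by 3.18 ± 0.86 on the log2 scale (limma adjusted p = 0.017), on 48 reads in all on day 45. The call was lost without mouse A of day 21 (adjusted p = 0.104), without mouse B of day 21 (0.063) and without mouse C of day 45 (0.133).

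miR-181d belongs to a family known for tuning T cell receptor signalling, and lies at chr8:84178716-84178787 on the - strand. It had 61.6, 9.33 and 18.8 RPM on day 21 and 138.6, 207.1 and 305.4 RPM on day 45. The days did not overlap, at a log2 fold change of 3.15 ± 0.81 (limma adjusted p = 0.014). It was called in 4 of the 6 fits that left out a mouse, and lost without mouse B of day 21 or mouse C of day 45. The near-identical miR-181b was higher in the same direction but did not pass the test, miR-181b-2 having 107.3, 58.3 and 143.3 RPM on day 21 and 151.2, 165.6 and 504.7 RPM on day 45 (log2 fold change 1.26, adjusted p = 0.253).

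miR-466k, at chr3:85467377-85467498 on the + strand, begins with a run of UG repeats. It had 25.0, 7.03 and 5.01 RPM on day 21 and 126.04, 67.3 and 64.5 RPM on day 45, with no overlap. The log2 fold change of 2.94 ± 0.93 passed the test narrowly (adjusted p = 0.042, limma) and was called in only 1 of the 6 fits that left out a mouse (adjusted p = 0.038 to 0.168). The call was also lost at a pseudocount of 0.5, without the filter and with array quality weights. Of the 13 tested microRNAs named miR-466, miR-467 or miR-669, many of which come from an intron of Sfmbt2, it was the only one called. The median of the 13 was 0.47.

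The single mice sampled between and after the 2 days, which did not enter this comparison, give the course of the same microRNAs. The cluster summed to 3656 RPM at day 25 and 2596 RPM at day 36, both below the highest mouse of day 21 and all those of day 45. Of all 35 tested cluster members, 32 in the mouse of day 25 and 31 in that of day 36 were below every mouse of day 45, against 79 and 89 of all 261 microRNAs. Of the 28 that rose, 12 and 16 in these mice were at or below the highest mouse of day 21. The choice of the 28 by their rise makes low values in these mice likelier. At day 100 the sum was 72948 RPM and at day 200 it was 51942 RPM, and all 35 were above every mouse of day 21 in each of them, against 120 and 89 of all 261 microRNAs. Of the 35, 14 had a day 21 mean under 10 RPM and passed the minimum through day 45. This favours values below day 45 at days 25 and 36 and values above day 21 at days 100 and 200. The Igf2-H19 pair differed from the cluster at day 36, with 138.5 RPM in that mouse, above mice A and C of day 45. miR-122 held 11.4% of microRNA reads in the same mouse, within its range of day 21. At days 100 and 200 the pair had 5149 and 3733 RPM, above every mouse of day 45. miR-802 had 1433 RPM in the mouse of day 25 and 460.8 in that of day 36, then 27.8 and 147.3 RPM in those of days 100 and 200. miR-466k, by contrast, had 11.6 RPM at day 100 and 12.9 at day 200, within its range of day 21. miR-181d had 95.03 RPM on day 100, below every mouse of day 45, and 273.8 RPM on day 200. With 1 mouse at each of these days, no test was made.

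**Figure D4:**
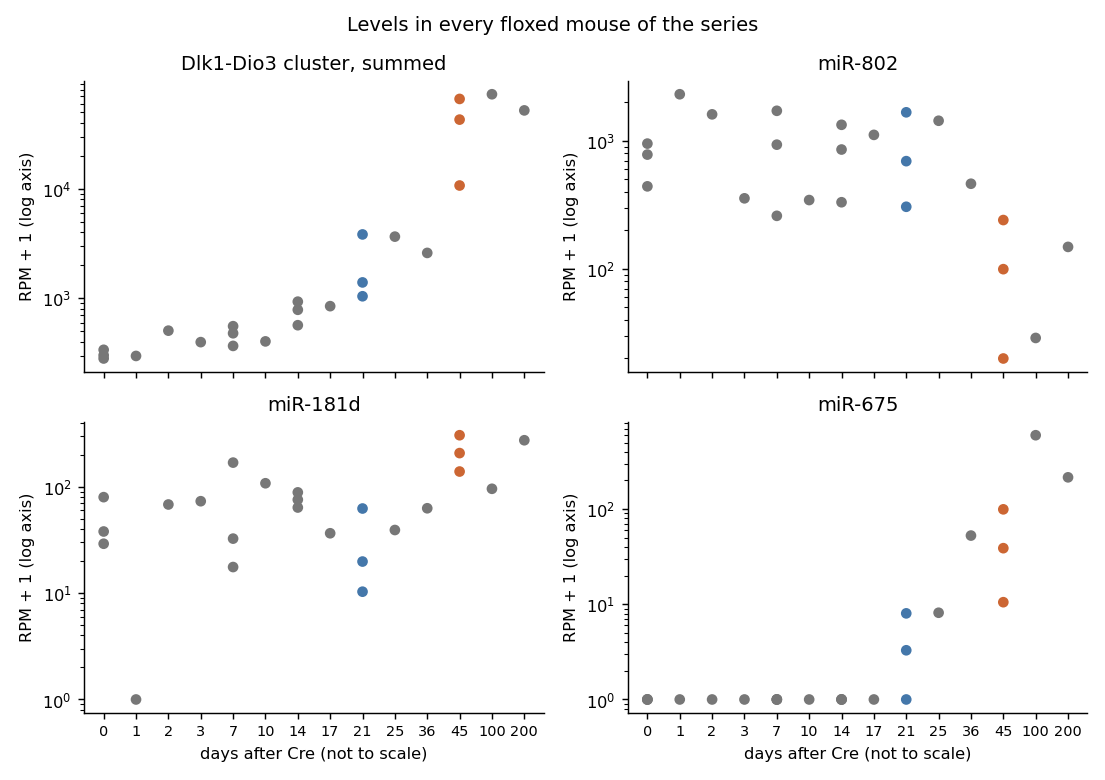
RPM + 1 on a log axis (y) by day after Cre (x, ordered but not to scale) in every floxed mouse, 1 point per mouse, for the summed Dlk1-Dio3 cluster, miR-802, miR-181d and miR-675; blue is day 21, orange day 45 and grey the other days. The cluster is between 10710 and 66099 RPM on day 45 and no lower than 51942 RPM in the later mice, while miR-802 is lowest in a mouse of day 45.

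Before Cre, at day 0, the levels were 57.3 ± 27.3 RPM for miR-376a, 83.1 ± 43.5 for miR-127 and 0 in all mice for miR-675 (SD, n = 3). miR-802 had 722.7 ± 259.5 RPM and miR-181d 48.1 ± 27.2 RPM at day 0. Thus day 21 was already above day 0 in mean level for the cluster microRNAs named, and near day 0 for miR-802 and miR-181d. These differences were not tested here. Some single mice before day 21 came to day 45 levels. miR-181d had 168.3 RPM in mouse A of day 7, above mouse A of day 45 (138.6), and miR-466k had 65.3 RPM in mouse B of day 14, above mouse C of day 45 (64.5). miR-802 had 258.3 RPM in mouse A of day 7, close to mouse A of day 45 (239.4). No other mouse before day 21 was within the range of day 45 for these.

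The most abundant microRNAs did not pass the test in either direction. miR-21, which is raised in many injured tissues and tumours, had 120279, 85826 and 330114 RPM on day 21 and 124979, 52622 and 76022 RPM on day 45 (log2 fold change -0.92 ± 0.71). Mouse C of day 21 stood alone. let-7a-2, of a family that restrains growth genes such as Hmga2, had 63042, 62909 and 38348 RPM on day 21 and 51660, 98318 and 49861 RPM on day 45 (0.25 ± 0.53). The others were let-7c-2 at a log2 fold change of 0.61, let-7c-1 at 0.61, let-7f-2 at 0.71, let-7f-1 at 0.65, let-7b at 0.53, miR-29a at -0.13, miR-126 at -0.38 and miR-192 at -1.18. The adjusted p of these 10 ran from 0.207 for miR-192 to 0.918 for miR-29a (limma).

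Below miR-802, the largest decreases that did not pass the adjusted test but showed no overlap were those of miR-19b-1 (-1.93 ± 0.75, adjusted p = 0.12, limma), miR-19b-2 (-1.76 ± 0.73, 0.152), miR-192 (-1.18 ± 0.56) and miR-30e (-1.10 ± 0.47, 0.162). Both miR-19b genes belong to the miR-17-92 family of clusters, known for promoting growth. miR-19b-1 had 748.3, 1182 and 969.1 RPM on day 21 and 390.6, 165.6 and 235.3 RPM on day 45. miR-192, a hepatocyte and gut microRNA, had 55163, 53262 and 38706 RPM on day 21 and 25389, 13667 and 28411 RPM on day 45. miR-30e had 5628, 8684 and 6771 RPM on day 21 and 3213, 2138 and 4870 RPM on day 45.

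Lists of microRNAs by locus, family and cell type were described by counts, to be read against 32 of all 261 called, 3 of 224 called outside the Dlk1-Dio3 and Igf2-H19 loci, and 117 of all 261 with a negative value. Some rows are hairpins that share a mature arm (let-7c-1 with let-7c-2, let-7f-1 with let-7f-2, miR-19b-1 with miR-19b-2, miR-30c-1 with miR-30c-2) and are not separate measurements of it. None of the 13 tested microRNAs of miR-17-92 and its paralogs was called; 12 were negative, and the median log2 fold change was -0.64 against 0.11 for all 261. miR-19b-1 was called lower with array quality weights and miR-20b without mouse C of day 45. All 6 miR-30 microRNAs were negative (median -0.75) and all 11 let-7 microRNAs were positive (median 0.61), with none called, although let-7e and let-7i were called higher with array quality weights and without mouse A of day 45. The 4 miR-29 microRNAs had a median of -0.09 and the 7 of the cluster of miR-322 and miR-503 a median of -0.06, also with none called. The Gnas microRNAs, from another imprinted locus, were at 1.12 ± 1.05 for miR-296 and 2.73 ± 1.05 for miR-298 (adjusted p = 0.116, limma). Under 4 other settings the adjusted p of miR-298 was 0.026 to 0.040 (limma). These were all microRNA reads as the base, a pseudocount of 10, array quality weights and mouse A of day 45 left out. miR-298 had 6.86, 4.61 and 5.01 RPM on day 21 and 12.6, 103.5 and 53.2 RPM on day 45. Its day 21 mean was under 10 RPM, so it too passed the minimum through day 45, and its level in mouse A of day 45 rested on 1 read.

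**Figure D5:**
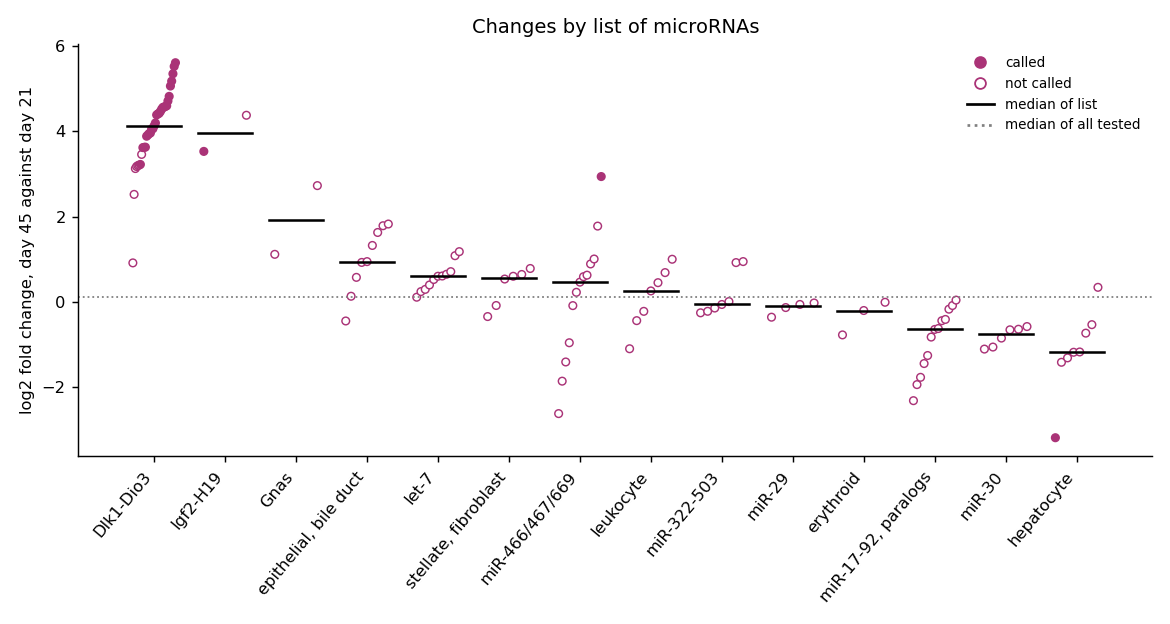
Log2 fold change of day 45 against day 21 (y axis) of every tested microRNA in 14 lists (x axis), filled where the adjusted p was under 0.05; black bars are list medians and the dotted line is the median of all 261 microRNAs. The Dlk1-Dio3 and Igf2-H19 medians, 4.13 and 3.95, are above all others, and the hepatocyte median of -1.17 is the lowest.

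Among cell type markers, 7 of the 8 tested hepatocyte microRNAs had negative values (median -1.17), against 117 of all 261, and miR-802 was the one called. miR-194-2 was called lower with array quality weights and without mouse A of day 45, and miR-194-1 in the latter alone. The summed level of the hepatocyte list was 65952 to 92833 RPM on day 21 and 24704 to 48359 RPM on day 45, without overlap. Of the 9 epithelial and bile duct microRNAs, 8 had positive values and none was called (median 0.95). The summed level of the epithelial and bile duct list was 1855 to 3344 RPM on day 21 and 4662 to 6398 RPM on day 45, again without overlap, with miR-200c at 66.2, 62.9 and 95.6 RPM on day 21 and 226.8, 367.5 and 220.1 RPM on day 45 (1.83, adjusted p = 0.137). The sums of both lists moved with the day, and their part in the change of the Dlk1-Dio3 microRNAs or of miR-802 was not tested.

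The leukocyte list (7 tested, 4 positive, median 0.26), the erythroid list (3 tested, median -0.20), the stellate and fibroblast list (6 tested, median 0.57) and the muscle list (2 tested, median 0.42) had no member called. Within the leukocyte list, the myeloid microRNA miR-223 was at a log2 fold change of -1.09, miR-142 at 0.26, miR-150 at -0.44, miR-155 at -0.22, miR-146a at 0.69, miR-146b at 1.00 and miR-511 at 0.45. miR-126, the endothelial marker, was at -0.38, and its host gene Egfl7 at 0.59 in RNA-seq (adjusted p = 0.320). miR-34a, the marker of the p53 response, had 1522, 1403 and 1257 RPM on day 21 and 2810, 755.8 and 303.5 RPM on day 45. Its mice of day 45 lay on both sides of those of day 21, at -0.68 ± 0.65.

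Over the 224 microRNAs outside the Dlk1-Dio3 and Igf2-H19 loci, 162 (72.3%) had a log2 fold change within 1 of 0, and the median was -0.05. The 3 called were miR-181d, miR-466k and miR-802, while 18 were higher and 12 were lower on day 45 without overlap. Of 24 host transcripts measured, 20 were tested and Rian and Mirg were the only ones called. Pank1, host of miR-107, was at -0.69 ± 0.25 (adjusted p = 0.211, limma) while Mcm7, host of miR-106b, was at 0.73 ± 0.24 (0.167), beside -0.37 for miR-107 and -0.08 for miR-106b.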

How the data were processed

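Small RNA and RNA-seq libraries were made from mouse liver. The authors aligned small RNA reads to microRNA hairpins with Bowtie 0.12.7, allowing 2 mismatches, and deposited RPM with 1 added to every value. RNA-seq was deposited as FPKM, which the authors computed with Cufflinks 2.2.1 (mm9). How reads matching several microRNAs were shared is not given in the sources used here.

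The added 1 was removed and RPM rescaled to reads other than miR-122. Depth was recovered from the steps of low values, all of which were whole reads within 0.15. Linear models with a trended prior variance in limma 3.58.1 (R 4.3.3) were fitted to log2(RPM + 1) over 15 libraries (days 0, 7, 14, 21 and 45, 3 mice each), with the contrast of day 45 against day 21. FPKM were fitted with the same kind of model over all 14 RNA-seq libraries, for genes at a mean of 1 FPKM or more. These libraries differ from those of the small RNA fit. They hold 3 mice each of days 0, 21 and 45, single mice of later days and 3 germline miR-122 knockout mice. The knockout livers thus entered the spread behind the RNA-seq p-values. Simulated data tested the fit: of 40 microRNAs moved among 261, 49% were called at a log2 change of 2 and 87.2% at 4, with 1 false call on average. These values were drawn independently, with the same spread in every group. They did not hold unequal depth, a wider spread on day 45 or microRNAs that move together by mouse, so the rates may differ in the real data. Named were the 12 largest rises, the largest falls filled to 5, the 10 most abundant, and members of fixed short lists; the other microRNAs, such as miR-136, miR-379 and miR-200c, were named after their values were seen. Members and lists were chosen with earlier results of these data known. Nothing says how mice were allotted to days, so p-values compare these mice only. Those of limma set the difference between the days against a spread pooled over all groups in the fit.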

Additional observations from a re-analysis of the deposited data

How the results depend on the processing

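The limits of these results were the 3 mice per day and the depth of day 45, where 3 reads are 37.8 RPM in mouse A. Against 32 microRNAs called (31 higher, 1 lower), the count was 21 (20 higher) at a minimum of 100 RPM and 50 (43 higher, 7 lower) with array quality weights; without a filter 2 were lower. A pseudocount of 0.5 gave 26 called (25 higher), 24 of them of Dlk1-Dio3, without miR-466k, miR-675 and miR-376c. Outside the Dlk1-Dio3 and Igf2-H19 loci 3 were called, and 6 with all microRNA reads as the base, 6 at a pseudocount of 10 and 15 with quality weights. Scaling to all microRNA reads moved the median log2 fold change from 0.11 to 0.27. The causes were not tested.

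Leaving out 1 mouse gave 16 to 47 microRNAs called, 16 to 39 higher and 0 to 8 lower, of which 15 to 32 of Dlk1-Dio3, and 0 to 15 outside both loci. The lowest counts were without mice A or B of day 21 and mouse B of day 45, and 8 were lower without mouse A of day 45. Host transcripts called numbered 0 to 3 with 1 mouse left out, against 2. Without a filter on FPKM 0 were called, and at a pseudocount of 0.1, 3.

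The replicate letters did not pair the mice (same-letter correlations of 0.14, -0.05 and 0.26 between the days). With the replicate block 33 microRNAs were higher and 1 lower, and in RNA-seq 1 gene against 31 and no host transcript, 0 against 2, were called.

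Among the microRNAs taken by the naming rule, for which these fits were tabulated, signs turned in 4, none of them called: let-7a-2 (-0.073 to 0.42 with 1 mouse left out), miR-142 (-0.20 to 0.63), miR-29a (-0.44 to 0.20, and 0.033 scaled to all reads) and miR-34a (-1.53 to 0.069). The sums of Dlk1-Dio3 and Igf2-H19 and the miR-122 share kept their direction in every setting, at log2 differences of 3.59 to 4.91, 3.29 to 6.05 and -4.23 to -3.39 with 1 mouse left out. The planned edgeR and DESeq2 fits were not run, since the deposited table is RPM with 1 added and reads were only estimated from it.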
